A study of Mus musculus with 16 samples.

Results

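Regulators of G protein signalling (RGS) are the proteins that switch heterotrimeric G proteins off, and their transcripts were examined in mouse cortical neurons that carried a fragment of mutant huntingtin, with and without knockdown of the transcription factor Twist1. The set held 10 RGS genes (Rgs2, Rgs4, Rgs5, Rgs7, Rgs8, Rgs9, Rgs10, Rgs14, Rgs16 and Rgs17), found by matching Ensembl identifiers to symbols, among 41388 genes in each library. The 10 genes were chosen by a reader of earlier results who knew their counts in these groups. Every difference between groups given for them is thus a description with its error, and no test is read from it. Calls of these genes, where counted below, describe the fit and are no support for a difference. All 10 passed the filter on low counts. For Rgs5, with 3 to 6 counts in each 72Q control library, the filter was met through the other groups.

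The neurons came from Swiss Webster mouse embryos at day 16 and were grown as primary cortical cultures. On day 5 in culture every group received 2 lentiviruses, one for huntingtin (Htt) exon 1 and one for a short hairpin (shRNA), and RNA was taken on day 10. The groups were 72Q Htt with Twist1 shRNA 1, 72Q Htt with Twist1 shRNA 2, 72Q Htt with a control shRNA against luciferase, and 25Q Htt with that luciferase shRNA, each with 4 libraries. The 72Q fragment has an expanded glutamine tract of the kind that causes Huntington disease, and the 25Q fragment a tract of normal length. All groups thus expressed exon 1 of Htt from a virus rather than a mutated gene of their own, and no group with 25Q Htt and a Twist1 shRNA was analysed here. Experiments were named exp107, exp108, exp109a and exp109b and supplied 1 library of each group each. Values are listed in that order of experiments throughout. Replicate numbers in the sample titles pair 25Q with 72Q libraries differently, except in exp109b. Pairs here follow the experiment label, and the title number served as an alternative block. The series asks what part Twist1 has in the transcriptional changes that mutant Htt brings about.

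When a receptor activates a G protein, the alpha subunit binds GTP and separates from the beta and gamma subunits, and the separated parts act on enzymes and channels until the GTP is hydrolysed. RGS proteins bind the active alpha subunit and speed that hydrolysis, so they shorten the signal. They fall into subfamilies: R4 members (Rgs2, Rgs4, Rgs5, Rgs8 and Rgs16) are small and act on Gi, Go and Gq proteins, with Rgs2 favouring Gq. R7 members (Rgs7 and Rgs9) work as stable complexes with the atypical beta subunit Gnb5, the R12 members Rgs10 and Rgs14 act on Gi and Go proteins, and the RZ member Rgs17 acts on Gz as well as on Gi and Go. Several of these genes are prominent in forebrain neurons and are known to respond quickly to synaptic activity, Rgs2 and Rgs4 among them.

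Twist1 is a basic helix-loop-helix factor, and factors of this class bind the E-box CANNTG. Promoter sequences from RefSeq (GRCm38.p6) were matched for 9 of the 10 genes by symbol, giving 11 promoters. Rgs14 had no entry. The 250 bases before the start are printed for Rgs4 and Rgs9, where the E-box letters occur 4 times, and for Rgs5 and Rgs17, which were higher with both Twist1 shRNAs and hold none. This choice was made with their values known. Each sequence runs 5′ to 3′ in the gene's direction and ends at the base before the start, with every CANNTG in capitals. They lie at chr1:169747643-169747892 on the minus strand (Rgs4), chr11:109298182-109298431 on the minus strand (Rgs9), chr1:169655251-169655500 on the plus strand (Rgs5) and chr10:5922401-5922650 on the minus strand (Rgs17).
Rgs4: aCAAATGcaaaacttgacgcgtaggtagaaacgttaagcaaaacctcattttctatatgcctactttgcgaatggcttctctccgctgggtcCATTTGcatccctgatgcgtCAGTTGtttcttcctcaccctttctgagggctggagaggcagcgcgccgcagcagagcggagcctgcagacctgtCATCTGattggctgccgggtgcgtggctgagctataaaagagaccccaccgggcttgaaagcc
Rgs9: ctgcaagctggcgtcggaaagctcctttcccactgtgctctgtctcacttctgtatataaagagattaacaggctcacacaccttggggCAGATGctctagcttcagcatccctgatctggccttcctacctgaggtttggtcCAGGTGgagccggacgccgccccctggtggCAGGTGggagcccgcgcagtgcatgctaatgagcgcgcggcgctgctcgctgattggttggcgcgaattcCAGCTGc
Rgs5: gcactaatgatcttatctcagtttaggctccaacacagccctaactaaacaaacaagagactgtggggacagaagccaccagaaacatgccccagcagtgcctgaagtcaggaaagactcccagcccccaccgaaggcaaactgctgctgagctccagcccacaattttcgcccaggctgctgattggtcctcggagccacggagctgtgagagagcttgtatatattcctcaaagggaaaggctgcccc
Rgs17: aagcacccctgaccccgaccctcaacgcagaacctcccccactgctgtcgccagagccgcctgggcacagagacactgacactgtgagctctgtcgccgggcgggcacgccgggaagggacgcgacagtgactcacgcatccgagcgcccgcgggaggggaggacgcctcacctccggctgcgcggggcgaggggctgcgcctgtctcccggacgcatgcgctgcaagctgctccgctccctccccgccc

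CANNTG reads the same on both strands. The Rgs7 promoter and 1 of the 3 Rgs8 promoters held it in 1 place, and the windows of Rgs2, Rgs16 and Rgs10 did not hold it. Of 32851 RefSeq promoter windows of that length, 66.2% held at least 1 such match, so a match is common. The form CATCTG, read on both strands, occurred in 1 place each in the Rgs4 and Rgs9 windows and in 14.4% of all windows. GGGCGG, also read on both strands, was found 4 times before Rgs2, 2 times each before Rgs16, Rgs10 and Rgs17, and 1 time before Rgs9. Of all windows, 32.7% held at least 1. The windows of Rgs2, Rgs7 and Rgs17 were rich in G and C, at 72.4% each, as were those of Rgs10 at 76.4% and Rgs16 at 66.4%. Those of Rgs4 and Rgs5 were at 53.6%, close to the median of 52.4% over all windows. The Rgs8 and Rgs9 windows lay between 53.2% and 60.8%. These matches describe letters in a window, not binding.

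Library totals ranged from 15814525 to 19533034 counts, and levels below are in CPM, counts scaled to library size with TMM factors. Twist1 itself stood at 1.57 ± 0.452 CPM with shRNA 1, 1.64 ± 0.403 CPM with shRNA 2, 4.15 ± 0.763 CPM in the 72Q control and 0.271 ± 0.225 CPM in 25Q neurons (SD, n = 4 each). All 7 general neuron markers were detected in every group. Their summed level was 5580 to 6640 CPM in 72Q control libraries and 8210 to 9490 CPM in 25Q libraries. The summed level of 7 markers of cortical glutamatergic neurons was 806 to 980 CPM with shRNA 1, 584 to 751 CPM with shRNA 2, 563 to 787 CPM in the 72Q control and 1260 to 1370 CPM in 25Q neurons. The higher cortical sum with shRNA 1 was not shared by the whole list. Against the 72Q control, 2 of these 7 markers rose and 2 fell at an edgeR adjusted p under 0.05, which 46.3% of all genes tested reached. The median log2 fold change of the 7 markers was 0.02. Slc17a7, 1 of those that rose, averaged 470 CPM with shRNA 1 and 262 CPM in the 72Q control. The part of these marker changes in the RGS differences was not tested. In RNA from a whole culture, fewer cells of a type and less RNA per cell cannot be told apart.

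The RGS mixture of these cultures differed most in a single gene, Rgs4. To compare levels between genes, CPM was divided by the gene length listed in the deposited files. The 10 genes summed to 100 ± 7.24 CPM per kb with shRNA 1, 87.3 ± 9.53 with shRNA 2, 71.2 ± 8.58 in the 72Q control and 173 ± 5.06 in 25Q neurons (SD, n = 4 each). Rgs4 made up 24.2 ± 3.6% of the sum with shRNA 1, 19.8 ± 5.41% with shRNA 2, 20.5 ± 4.58% in the 72Q control and 52.2 ± 1.37% in 25Q neurons. The Rgs17 share was 23.0%, 22.6%, 19.1% and 6.11% in the same order of groups, so it was lowest in 25Q neurons, where the Rgs4 share was highest. Rgs4 was the most abundant of the 10 per length in all 4 libraries of 25Q, while Rgs7 held that place in all 4 libraries of the 72Q control and all 4 of shRNA 2. With shRNA 1 the first place was held by Rgs4 in exp107 and exp109a and by Rgs7 in exp108 and exp109b. The listed length of Rgs7 is 1418 bases, against 6019 bases of exon in GENCODE M21, so its place among the genes rests on the shorter gene model under which it was counted.

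**Figure D1:**
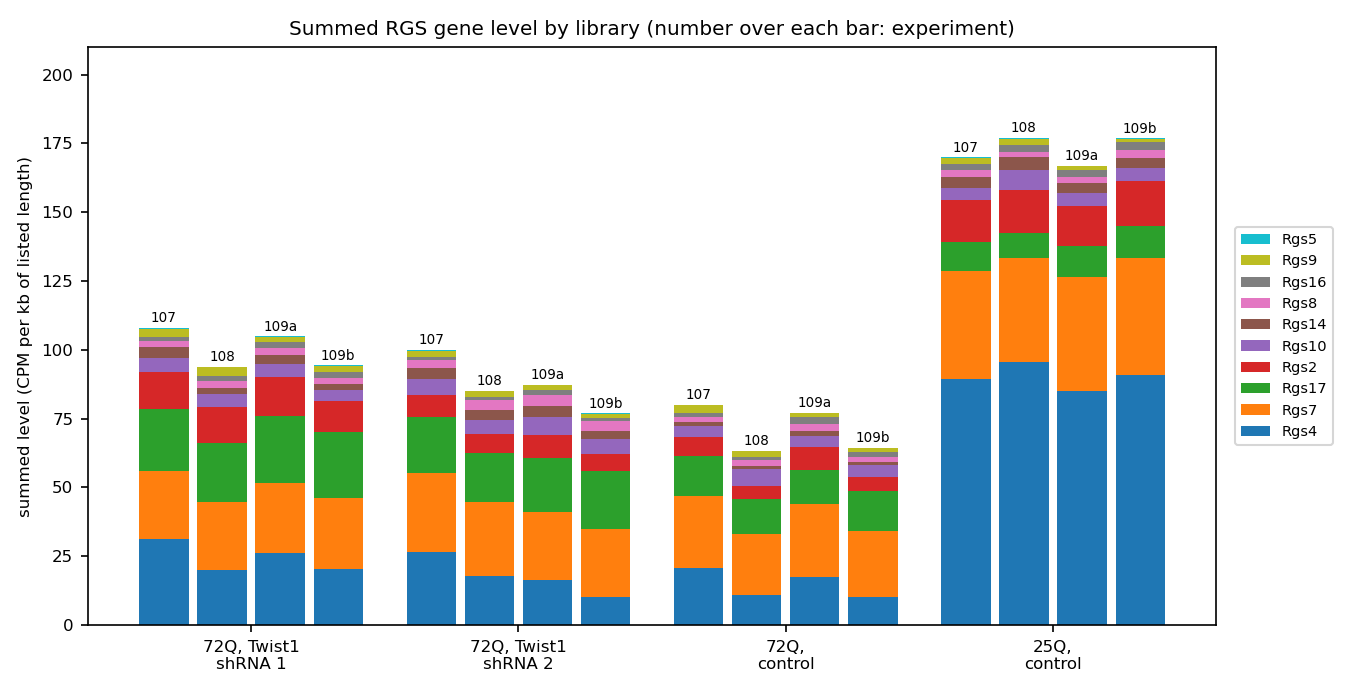
Summed level of the 10 RGS genes in CPM per kb of listed length, 1 stacked bar per library, grouped as 72Q with Twist1 shRNA 1, 72Q with Twist1 shRNA 2, 72Q control and 25Q control, with the experiment number over each bar. The Rgs4 segment at the base is about as high as all other segments together in the 25Q libraries, and the sum stays between 63.3 and 80.0 in the 72Q control libraries, against 167 to 177 in the 25Q libraries.

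Within the R4 subfamily, Rgs4, a neuronal brake on Gi, Go and Gq signalling, had the largest difference of the 10 genes between 72Q control and 25Q neurons. It stood at 64.2, 34.2, 54.1 and 32.2 CPM in the 72Q control and at 277, 296, 264 and 281 CPM in 25Q neurons. The ranges were far apart, and the log2 fold change was -2.65 ± 0.21 (SE). With shRNA 1 the Rgs4 level was 97.1, 62.3, 80.6 and 63.0 CPM, and with shRNA 2 it was 82.3, 54.9, 50.8 and 31.7 CPM. Both sets overlapped with the 72Q control, narrowly for shRNA 1. The log2 fold change against the 72Q control was 0.73 ± 0.21 for shRNA 1, higher in 4 of 4 experiments, and 0.24 ± 0.22 for shRNA 2, higher in 2 of 4, with a 95% interval of -0.25 to 0.73. Neither shRNA group came near the 25Q level, at log2 fold changes of -1.93 ± 0.20 and -2.41 ± 0.20 against 25Q neurons.

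Rgs2, which favours Gq and is known as an activity-induced gene, was lower in the 72Q control than in 25Q neurons and differed between the shRNAs. The levels were 25.1, 17.8, 30.0 and 18.7 CPM in the 72Q control and 54.6, 57.2, 53.5 and 59.2 CPM in 25Q neurons, with a log2 fold change of -1.31 ± 0.11 and no overlap. Rgs2 stood at 47.8, 48.1, 51.1 and 42.1 CPM with shRNA 1 and at 28.9, 24.6, 30.4 and 22.4 CPM with shRNA 2. The shRNA 1 libraries lay above every 72Q control library and below every 25Q library, whereas the shRNA 2 libraries overlapped with the 72Q control. The log2 fold change against that control was 1.05 ± 0.11 with shRNA 1 and 0.22 ± 0.12 with shRNA 2, and shRNA 1 exceeded shRNA 2 by 0.83 ± 0.11 on the log2 scale, in 4 of 4 experiments.

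Rgs5, a gene best known from pericytes and smooth muscle of vessels, was scarce in these neuronal cultures but differed by the largest fold with the shRNAs. Its counts were 25, 20, 25 and 21 with shRNA 1, 29, 19, 17 and 20 with shRNA 2, 5, 4, 3 and 6 in the 72Q control, and 21, 26, 18 and 24 in 25Q neurons. Only the 72Q control stood apart, and the other 3 groups overlapped with each other. Summed counts and library sizes gave a ratio of 0.188 for the 72Q control over 25Q neurons (95% interval 0.107 to 0.315), of 5.08 for shRNA 1 over the 72Q control (3.04 to 8.95) and of 4.34 for shRNA 2 over that control (2.59 to 7.68). These intervals cover counting error only. The fitted log2 fold changes were -2.00 ± 0.38, 1.94 ± 0.38 and 1.73 ± 0.38, and they depend on the prior count at such low counts. Against 25Q neurons Rgs5 differed by -0.06 ± 0.23 with shRNA 1 and by -0.27 ± 0.24 with shRNA 2, with 95% intervals of -0.53 to 0.42 and -0.75 to 0.22.

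Markers of mural cells, in which Rgs5 is prominent, did not share 1 pattern. Of 11 such markers, 5 were tested, and the summed level of the list was 153 to 171 CPM with shRNA 1, 149 to 153 CPM with shRNA 2, 188 to 207 CPM in the 72Q control and 200 to 210 CPM in 25Q neurons. Most of that sum was Cspg4, which precursors of oligodendrocytes also express, at means of 119, 110, 148 and 162 CPM in the same order of groups. Notch3 averaged 30.4, 31.5, 33.3 and 31.7 CPM in that order and did not reach an edgeR adjusted p under 0.05 in any comparison. Pdgfrb, a receptor of pericytes, averaged 8.83, 6.45, 9.98 and 9.56 CPM in that order. The channel subunit gene Abcc9 averaged 1.44, 1.32, 1.57 and 0.24 CPM, and Tbx18, a mural transcription factor, 0.332, 0.883 and 0.563 CPM with shRNA 1, with shRNA 2 and in the 72Q control. The pericyte gene Higd1b was at 0 in all libraries of the 72Q control and of 25Q, Anpep at 0 in all of shRNA 1 and of 25Q, and Tbx18 at 0 in all of 25Q. The part of mural cells in the Rgs5 values was not tested.

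The other R4 members were Rgs8 and Rgs16. Rgs8, a neuronal regulator of Gi and Go, stood at 19.6, 22.7, 24.3 and 19.3 CPM with shRNA 1, 27.8, 35.1, 39.2 and 32.2 CPM with shRNA 2, 17.9, 18.9, 23.7 and 18.3 CPM in the 72Q control, and 22.7, 18.9, 22.8 and 25.7 CPM in 25Q neurons. Only the shRNA 2 libraries were set apart, above all others. The log2 fold change was 0.76 ± 0.08 for shRNA 2 over the 72Q control, 0.13 ± 0.09 for shRNA 1 over that control and -0.20 ± 0.09 for the 72Q control over 25Q neurons. Rgs16, an inducible regulator, ranged from 3.82 to 5.55 CPM with shRNA 1, from 2.08 to 4.38 CPM with shRNA 2, from 2.92 to 5.65 CPM in the 72Q control and from 5.56 to 7.11 CPM in 25Q neurons. The 3 groups with 72Q Htt overlapped with each other, and of these only the 72Q control reached into the 25Q range. Rgs16 was lower in the 72Q control than in 25Q neurons by a log2 fold change of -0.57 ± 0.14 and lower with shRNA 2 than with the control shRNA by -0.42 ± 0.16, in 4 of 4 experiments each, while shRNA 1 stood at 0.25 ± 0.15 against the 72Q control.

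Among the R7 members, Rgs7, a regulator of Go signalling in neurons, separated 25Q from every 72Q library, while its ranges overlapped among the 72Q groups. Its levels were 34.4, 34.9, 36.4 and 36.5 CPM with shRNA 1, 41.2, 38.5, 35.1 and 35.2 CPM with shRNA 2, 37.3, 31.3, 37.4 and 33.6 CPM in the 72Q control, and 55.4, 53.8, 58.8 and 60.5 CPM in 25Q neurons. All 12 libraries with 72Q Htt lay below 25Q. The log2 fold change was -0.71 ± 0.06 for the 72Q control over 25Q neurons. Against the 72Q control the difference was 0.03 ± 0.06 with shRNA 1 and 0.10 ± 0.06 with shRNA 2, with 95% intervals of -0.10 to 0.16 and -0.03 to 0.23. Rgs9, known from photoreceptors and striatal neurons, varied more by experiment than by group. It stood at 19.4, 19.6, 11.5 and 13.1 CPM with shRNA 1, 15.0, 13.8, 10.2 and 9.33 CPM with shRNA 2, 17.8, 13.2, 10.2 and 8.05 CPM in the 72Q control, and 13.2, 14.8, 8.40 and 6.99 CPM in 25Q neurons. In every group, the exp107 and exp108 libraries were above those of exp109a and exp109b, and all groups overlapped. Within experiments Rgs9 was higher with shRNA 1 than with the control shRNA in 4 of 4, by a log2 fold change of 0.37 ± 0.10. The differences were 0.18 ± 0.10 for the 72Q control over 25Q neurons and -0.01 ± 0.10 for shRNA 2 over the 72Q control.

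Of the R12 members, Rgs14, which also binds inactive Gi through a GoLoco motif and is known from pyramidal cells of the hippocampus, was lowest in the 72Q control. The levels were 9.82, 6.14, 8.14 and 5.49 CPM with shRNA 1, 9.94, 8.86, 10.4 and 7.48 CPM with shRNA 2, 3.48, 3.56, 4.30 and 3.15 CPM in the 72Q control, and 9.85, 11.7, 8.65 and 9.65 CPM in 25Q neurons. Every 72Q control library lay below every library of the other groups, which overlapped with each other. Its log2 fold change was -1.43 ± 0.15 for the 72Q control over 25Q neurons, 0.99 ± 0.15 for shRNA 1 over the 72Q control and 1.31 ± 0.14 for shRNA 2 over it. Against 25Q neurons Rgs14 differed by -0.44 ± 0.13 with shRNA 1 and by -0.12 ± 0.12 with shRNA 2. Rgs10, a gene known for its high level in microglia, ranged from 6.67 to 8.70 CPM with shRNA 1, from 8.92 to 11.1 CPM with shRNA 2, from 7.19 to 10.1 CPM in the 72Q control and from 7.81 to 12.3 CPM in 25Q neurons. The shRNA 1 libraries lay below those of shRNA 2, and other pairs of groups overlapped. Its differences were -0.17 ± 0.13 for the 72Q control over 25Q neurons, -0.03 ± 0.13 for shRNA 1 and 0.30 ± 0.12 for shRNA 2 over the 72Q control. Of 11 microglial markers 3 were tested. The summed level of all 11 was 24.8 to 32.3 CPM with shRNA 1 and 28.0 to 31.9 CPM with shRNA 2. It was 31.9 to 39.0 CPM in the 72Q control and 27.3 to 33.4 CPM in 25Q neurons. Tmem119, a defining microglial gene, was at 0 in all 25Q libraries and averaged under 0.07 CPM in the other groups, and C1qb was at 0 in all shRNA 2 libraries. With shRNA 2 over the 72Q control, the tested marker Sall1 fell by 0.62 ± 0.07 on the log2 scale (edgeR adjusted p = 4.74e-08) and Aif1 rose by 0.51 ± 0.10 (0.000113). Sall1, which neural cells also express and which makes up most of the sum, averaged 21.7, 17.0, 26.3 and 21.4 CPM in the order shRNA 1, shRNA 2, 72Q control and 25Q, and Aif1 averaged 7.44, 11.6, 8.17 and 8.56 CPM in that order. The part of microglia in the Rgs10 values was not tested.

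Rgs17, the RZ member, was the only 1 of the 10 genes to be higher in the 72Q control than in 25Q neurons in all 4 experiments. It is a regulator of Gz known for restraining opioid receptor signalling. Rgs17 stood at 188, 177, 200 and 198 CPM with shRNA 1, 170, 147, 161 and 173 CPM with shRNA 2, 118, 105, 103 and 120 CPM in the 72Q control, and 88.2, 74.8, 91.3 and 95.7 CPM in 25Q neurons. No 2 groups overlapped, so the levels ran 25Q, 72Q control, shRNA 2, shRNA 1 in rising order. Rgs17 had a log2 fold change of 0.35 ± 0.05 for the 72Q control over 25Q neurons, 0.78 ± 0.05 for shRNA 1 over the 72Q control and 0.55 ± 0.05 for shRNA 2 over it. Knockdown groups were thus farther from 25Q neurons than the 72Q control was, at 1.13 ± 0.05 with shRNA 1 and 0.90 ± 0.05 with shRNA 2.

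**Figure D2:**
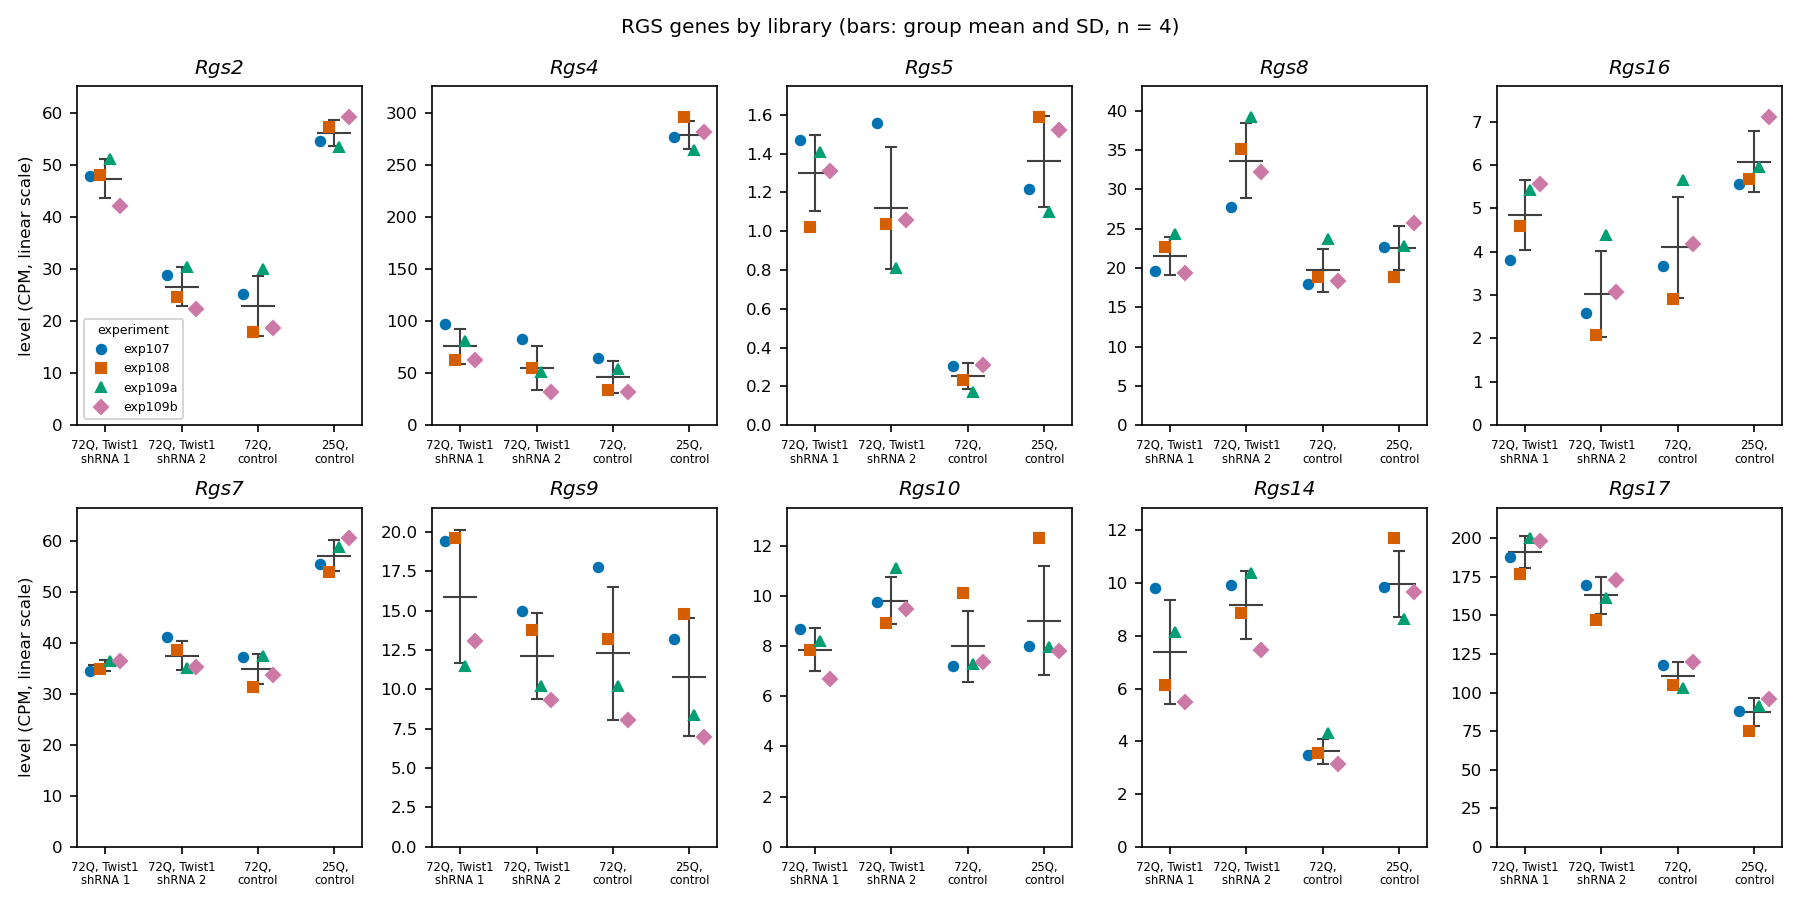
Level of each RGS gene in CPM on a linear axis from 0, 1 point per library coloured by experiment, with the group mean and SD (n = 4), for 72Q with Twist1 shRNA 1, 72Q with Twist1 shRNA 2, 72Q control and 25Q control from left to right. Rgs5 and Rgs14 dip in the 72Q control alone, Rgs7 and Rgs4 are high in 25Q alone, Rgs8 is high with shRNA 2 alone, and Rgs17 climbs from 25Q on the right to shRNA 1 on the left.

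Across the 10 genes, 7 had an adjusted p under 0.05 in the 72Q control against 25Q neurons (edgeR quasi-likelihood, Benjamini-Hochberg over 15103 genes), 1 higher and 6 lower, where 57.1% of all genes tested did so. The members' median log2 fold change was -0.64, against 0.03 over all genes. With shRNA 1 over the 72Q control 6 were called, all higher, against 46.3% of all genes, and the median was 0.55, against -0.005 over all genes. With shRNA 2 over that control 6 were called, 5 higher and 1 lower, against 41.8%, and the median was 0.27, against 0.002. Between shRNA 1 and shRNA 2, 7 were called, 4 higher and 3 lower, against 53.2%. Groups did not overlap for 6, 4, 4 and 4 of the 10 genes in these comparisons, against 38.3%, 29.0%, 22.4% and 33.2% of all genes tested. Because the genes were selected on these counts, nothing is read from such shares. The 72Q control libraries enter 3 of the comparisons, as the group on top of the fold in 1 and below it in 2, so a low value there moves all 3.

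**Figure D3:**
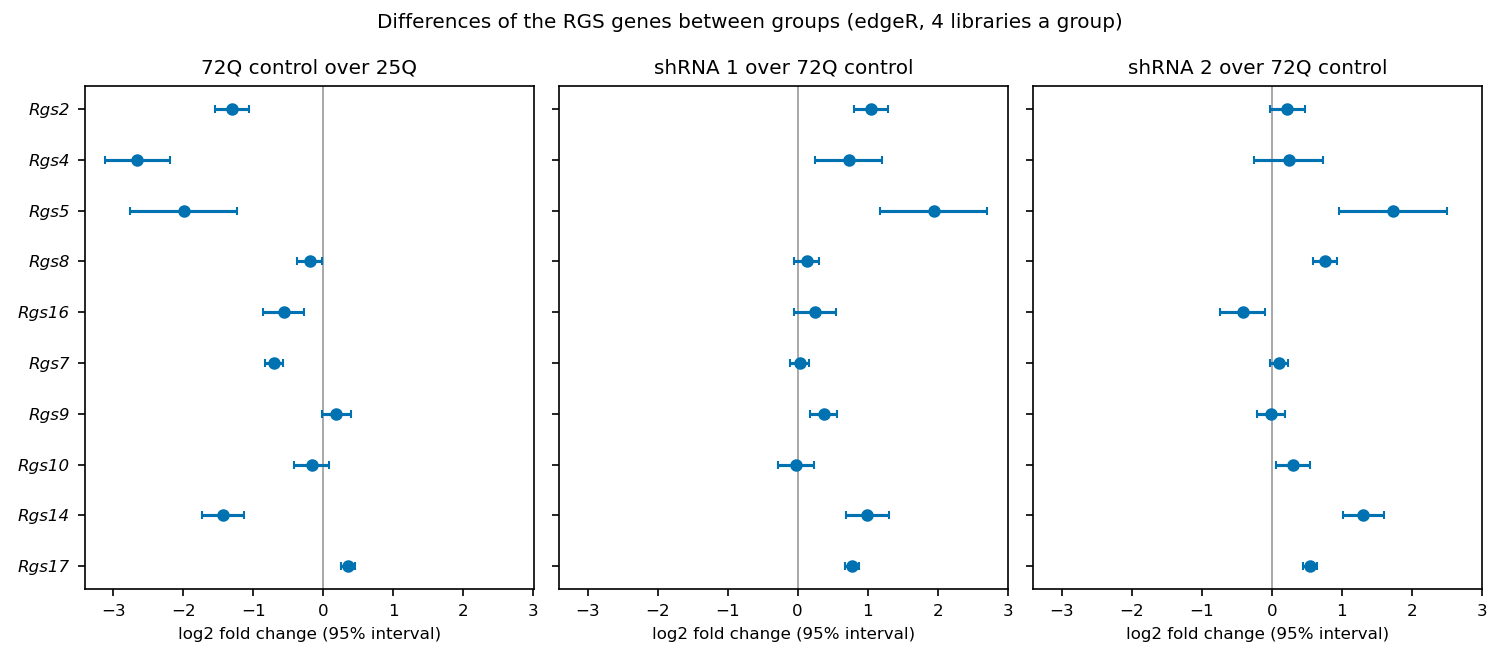
Log2 fold change of each RGS gene with its 95% interval (horizontal axis), in the 72Q control over 25Q, in shRNA 1 over the 72Q control and in shRNA 2 over the 72Q control, with 4 libraries a group. Rgs4 lies farthest to the left in the first panel at -2.65, Rgs5 farthest to the right in the other panels at 1.94 and 1.73 with the widest intervals, and Rgs2 sits at 1.05 with shRNA 1 and at 0.22 with shRNA 2.

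The size of the difference between the 72Q control and 25Q neurons varied by experiment in the same way for several genes. For Rgs4 the log2 difference was -2.11 in exp107, -3.11 in exp108, -2.28 in exp109a and -3.12 in exp109b. Rgs2 showed the same split, at -1.12, -1.68, -0.83 and -1.65, and so did Rgs16 at -0.59, -0.94, -0.07 and -0.75. Rgs14, at -1.47, -1.68, -0.99 and -1.58, and Rgs7, at -0.57, -0.78, -0.65 and -0.85, were likewise farthest from 25Q in exp108 and exp109b. Rgs5, at -1.67, -2.3, -2.11 and -1.95, was not farthest in both of those experiments, and neither were Rgs8, Rgs9, Rgs10 and Rgs17. The 72Q control libraries of those 2 experiments also stood apart over all genes, at -28.9 and -28.0 on the first principal component, against -7.49 and -7.95 for exp107 and exp109a, while 25Q libraries lay between 47.9 and 50.9. Their summed cortical glutamatergic markers were 563 and 575 CPM, against 787 and 730 CPM in the 72Q control of exp107 and exp109a. The shRNA groups were also lowest on that component in exp108 and exp109b. With shRNA 1 these libraries lay at -6.81 and -8.92, against 5.15 and 2.01 for exp107 and exp109a. With shRNA 2 they lay at -34.4 and -37.0, against -17.1 and -27.1. The part of this difference between experiments in the RGS values was not tested. Directions held in every experiment for Rgs4, Rgs2, Rgs16, Rgs14 and Rgs7.

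Other genes with similar profiles were found by the root mean square difference of centred log2 levels over the 16 libraries, among 13599 genes averaging at least 1 CPM. Rgs4 was closest to Pdzrn3 at 0.167, Bhlhe22 at 0.213 and Cav1 at 0.219, on a scale where its own spread was 1.1. The genes closest to Rgs2 were Kitl, Kcnv1 and Sez6, between 0.122 and 0.15 for an own spread of 0.583, and those closest to Rgs17 were Clcn5, Zfand2a and Cnih4, between 0.12 and 0.155 for a spread of 0.457. Rgs7 was closest to Ank at 0.0924, Abr at 0.0931 and Jph4 at 0.0935, with an own spread of only 0.302. For Rgs14 these were Col19a1, Mvd and Cadps2, and for Rgs8 Dcun1d4, Ak4 and Clock. Rgs5, with an own spread of 0.861, was closest to Tmtc4 at 0.431, Rspo3 at 0.459 and Rgs14 at 0.459, and no other RGS gene of the set had a fellow member among its nearest 3 genes.

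Of the 10 genes, 6 lie on chromosome 1. Rgs5 (chr1:169655501-169695813, plus strand) and Rgs4 (chr1:169741477-169747642, minus strand) are adjacent with 45663 bases and 0 annotated genes between them, their 3′ ends facing each other, on GRCm38 as given in the deposited files. Their profiles were not alike: Rgs4 had Rgs2 as its closest fellow member, at a root mean square difference of 0.687, and stayed below every 25Q library with both shRNAs, where the Rgs5 ranges overlapped with 25Q. Rgs8 (chr1:153653025-153700323) and Rgs16 (chr1:153740349-153745468), both on the plus strand, are separated by 40025 bases, and shRNA 2 went with a higher Rgs8 and a lower Rgs16. Rgs2 (chr1:143999338-144004161, minus strand) lies 134492 bases from Rgs13, the nearest RGS gene outside the set. Rgs7 (chr1:175059736-175491130), Rgs17 (chr10:5825663-5922400) and Rgs9 (chr11:109225355-109298129) are on the minus strand, Rgs14 (chr13:55369732-55384687) is on the plus strand, and Rgs10 is on chromosome 7. Exons of Rgs8 and Rgs16 overlap those of the antisense genes Gm29529 and Gm28513 by 70 and 236 bases, and these held 5 and 6 counts over all 16 libraries.

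Among the other RGS genes, Rgs6 had the largest change in the 72Q control. Of 11 listed, 7 were tested, and Rgs1, Rgs18, Rgs21 and Rgs22, the first known from lymphocytes, were too low. Rgs6, the R7 relative of Rgs7, fell to 31.8, 20.3, 34.6 and 28.7 CPM in the 72Q control, against 71.2, 69.6, 82.7 and 89.9 CPM in 25Q neurons (log2 fold change -1.45 ± 0.07, edgeR quasi-likelihood, Benjamini-Hochberg adjusted p = 3.02e-15). With the shRNAs Rgs6 stood at -0.04 ± 0.08 and -0.14 ± 0.08 against the 72Q control (adjusted p = 0.731 and 0.165). Rgs11, also of the R7 group, and Rgs12 rose in the 72Q control, by 0.62 ± 0.11 and 0.23 ± 0.06 (adjusted p = 4.55e-05 and 0.000772). The median over the 7 genes was 0.15, against 0.03 over all genes. This list and those below were also chosen with earlier results of these data known.

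Rgs13, an R4 gene known from B cells and mast cells and the neighbour of Rgs2, was the only gene of these 7 to rise with a Twist1 shRNA. It stood at 8.76, 12.0, 7.29 and 4.62 CPM with shRNA 1, 3.65, 5.36, 2.76 and 2.65 CPM with shRNA 2, and 3.05, 3.85, 2.83 and 1.81 CPM in the 72Q control. The shRNA 1 libraries were above every 72Q control library. Rgs13 rose by 1.46 ± 0.14 on the log2 scale with shRNA 1 (edgeR adjusted p = 1.13e-10) and stood at 0.31 ± 0.15 with shRNA 2 (0.0895), and shRNA 1 exceeded shRNA 2 by 1.15 ± 0.13 (3.65e-09). Rgs20, an RZ relative of Rgs17, fell with both shRNAs, by log2 fold changes of -0.41 ± 0.08 and -0.40 ± 0.08 (edgeR adjusted p = 9.35e-05 and 0.000117). With shRNA 1, 1 gene rose and 3 fell, and with shRNA 2, 0 rose and 3 fell (Rgs3, Rgs20 and Rgs19). Of all genes tested, 46.3% and 41.8% were called in these comparisons. At an unadjusted p under 0.05, 1 gene was higher with shRNA 2 in edgeR, and with DESeq2 0 rose. The fall of Rgs19 with shRNA 2, at -0.17 ± 0.06 (edgeR adjusted p = 0.0202), was lost in 9 of 24 alternatives, namely DESeq2, upper-quartile and library-total scaling, no filter, both other choices of block and leaving out 72Q control exp109a, shRNA 2 exp109a or shRNA 2 exp109b in turn. That of Rgs11 with shRNA 1, at -0.33 ± 0.11 (0.0151), was lost in 4 of 24, namely without the block, with the title number as block, without shRNA 1 exp109b and without 72Q control exp107.

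Partners of the R7 proteins were listed next, because Rgs7 and Rgs9 depend on them for stability and place. Gnb5, the obligate beta subunit, passed the threshold in none of the comparisons and averaged 54.2, 52.7, 51.1 and 48.6 CPM with shRNA 1, with shRNA 2, in the 72Q control and in 25Q neurons. Its 72Q control over 25Q difference was 0.07 ± 0.05 (edgeR adjusted p = 0.239). Rgs7bp, the membrane anchor of the R7 complex, fell to 68.0, 72.5, 72.8 and 77.0 CPM in the 72Q control, against 93.8, 104, 113 and 121 CPM in 25Q neurons (-0.57 ± 0.06, edgeR adjusted p = 4.18e-09). It rose with shRNA 1 by 0.44 ± 0.06 and with shRNA 2 by 0.72 ± 0.06 against the 72Q control (edgeR adjusted p = 5.81e-07 and 9.15e-11). Gpr158, an orphan receptor that recruits R7 proteins to the membrane, stood at 76.4, 82.9, 75.1 and 83.8 CPM with shRNA 1, 81.1, 73.1, 80.5 and 79.3 CPM with shRNA 2, 45.7, 48.0, 45.4 and 44.5 CPM in the 72Q control, and 53.1, 49.2, 53.1 and 51.5 CPM in 25Q neurons. Both shRNA groups lay above all other libraries, at 0.79 ± 0.05 and 0.77 ± 0.05 over the 72Q control (edgeR adjusted p = 2.83e-13 and 7.67e-13). The small fall of Gpr158 in the 72Q control (-0.17 ± 0.06, edgeR adjusted p = 0.00879) was lost when libraries were scaled by totals alone or by upper quartiles.

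The low partners Gpr179 and Rgs9bp, both known from retina, rose in the 72Q control over 25Q neurons by 1.30 ± 0.27 and 0.86 ± 0.32 (edgeR adjusted p = 2.21e-05 and 0.00935), the call of Rgs9bp being lost without 72Q control exp108. Of the 5 partners, 2 rose and 2 fell in that comparison, 2 rose and 2 fell with shRNA 1, and 3 rose and 0 fell with shRNA 2. None fell with shRNA 2 at an unadjusted p under 0.05 in edgeR or with DESeq2 either. In the same order, 57.1%, 46.3% and 41.8% of all genes tested were called. The medians were 0.07, 0.09 and 0.72, against 0.03, -0.005 and 0.002 over all genes. The 2 falls with shRNA 1 were those of Gpr179 and Rgs9bp, both under 2.5 CPM on average, and under the alternatives between 0 and 2 partners fell there.

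The G protein subunits on which RGS proteins act changed in both directions. Of 16 alpha subunit genes 13 were tested. In the 72Q control over 25Q neurons 3 rose (1 to 4 over the alternatives) and 5 fell (3 to 6), with a median of -0.06, and the largest falls at 1 CPM or more were those of Gnal, the olfactory and striatal stimulatory subunit (-0.53 ± 0.05, edgeR adjusted p = 2.67e-10), and Gnai1, an inhibitory subunit (-0.46 ± 0.05, 2.55e-08). With shRNA 1, 2 rose and 3 fell, Gnai1 falling further (-0.56 ± 0.06, edgeR adjusted p = 1.44e-09). With shRNA 2, 0 rose and 8 fell, with a median of -0.30, led by the Gq family gene Gna11 (-0.69 ± 0.05, edgeR adjusted p = 1.33e-12) and the inhibitory Gnai2 (-0.56 ± 0.04, 1.86e-11). In shRNA 1 over shRNA 2, 9 were higher and 1 was lower. The shares of all genes tested that were called were 57.1%, 46.3%, 41.8% and 53.2% in the order of these comparisons. Gnaz, the subunit that Rgs17 is best known for, averaged 194 CPM with shRNA 1 and 240 CPM in the 72Q control (-0.30 ± 0.04, edgeR adjusted p = 6.13e-07). With shRNA 2 Gnaz averaged 227 CPM and was not called against that control. Its level with shRNA 1 was below that with shRNA 2 by -0.22 ± 0.04 (edgeR adjusted p = 6.23e-05).

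Of 16 beta and gamma genes 11 were tested, with 2 higher and 6 lower in the 72Q control than in 25Q neurons. The higher count ran from 1 to 3 over the alternatives, as Gng3, at 0.12 ± 0.05 (edgeR adjusted p = 0.0318), lost its call in 6 of 24, including without 72Q control exp108 or exp109a and without 25Q exp108 or exp109b. Gnb4 and the striatal gamma subunit gene Gng7 fell by -0.89 ± 0.05 and -0.85 ± 0.07 (edgeR adjusted p = 3.57e-15 and 1.93e-10), and both were higher with shRNA 1 than in the 72Q control, by 0.42 ± 0.05 and 0.36 ± 0.07 (3.83e-08 and 8.73e-05). Neither was called higher with shRNA 2, where Gnb4 averaged 60.5 CPM, against 61.2 CPM in the 72Q control. The largest change with shRNA 1 in these lists was that of Gng2, a common gamma subunit, which fell to a mean of 241 CPM, against 805 CPM in the 72Q control (-1.74 ± 0.05, edgeR adjusted p = 2.29e-21). With shRNA 2 Gng2 averaged 626 CPM (-0.36 ± 0.05, 9.72e-07), and shRNA 1 was below shRNA 2 by -1.38 ± 0.05 (3.32e-19). With shRNA 1, 4 of these genes rose (2 to 6 over the alternatives) and 1 fell, and with shRNA 2, 0 rose and 5 fell. Beside these counts, 57.1% of all genes tested were called in the 72Q control over 25Q, 46.3% with shRNA 1 and 41.8% with shRNA 2. For alpha subunits as for beta and gamma subunits, the count of genes higher with shRNA 2 was also 0 at an unadjusted p under 0.05 in edgeR and with DESeq2, and over the alternatives it reached 1 for alpha and 2 for beta and gamma subunits.

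Receptor kinases, arrestins and other modulators of alpha subunits were all tested, 12 of 12. In the 72Q control over 25Q neurons 2 rose and 6 fell, among them the receptor kinases Grk5 and Grk3 (-0.76 ± 0.09 and -0.54 ± 0.05, edgeR adjusted p = 9.44e-09 and 8.57e-11). Ric8b, a chaperone of stimulatory alpha subunits, rose in the 72Q control by 0.38 ± 0.06 and fell with shRNA 1 by -0.50 ± 0.06 (edgeR adjusted p = 3.83e-06 and 5.15e-08). With shRNA 1, 3 rose and 3 fell, and with shRNA 2, 2 rose and 3 fell. Over all genes tested, 57.1%, 46.3% and 41.8% were called in the order of these comparisons.

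Downstream of the G proteins, the effector list leaned to lower levels in the 72Q control. Of 17 genes 14 were tested, and 1 rose and 10 fell in the 72Q control over 25Q neurons. The median was -0.34, against 0.03 over all genes and -0.37 over the general neuron markers. The part of the neuron marker change in the effector values was not tested. The adenylyl cyclases Adcy8 and Adcy7 fell by -1.15 ± 0.07 and -1.02 ± 0.21 (edgeR adjusted p = 1.37e-14 and 0.00122), and the phospholipase gene Plcb4, a Gq effector, rose by 0.97 ± 0.07 (1.37e-12). With shRNA 1, 6 rose and 3 fell, and with shRNA 2, 5 rose and 4 fell. Calls over all genes tested stood at 57.1% in the 72Q control over 25Q, 46.3% with shRNA 1 and 41.8% with shRNA 2. Plcb1, the main Gq-activated phospholipase of cortex, rose with both, by 0.84 ± 0.05 and 0.54 ± 0.05 (edgeR adjusted p = 3.36e-14 and 9.37e-10). Adcy7 also rose with both, by 0.929 ± 0.205 and 0.681 ± 0.207 (edgeR adjusted p = 0.00303 and 0.0201). Its call with shRNA 2 was lost in 6 of 24 alternatives. Adcy1, a calcium-stimulated cyclase of neurons, fell with shRNA 1 to 535 CPM, against 1060 CPM in the 72Q control (-0.96 ± 0.08, edgeR adjusted p = 5.93e-08). With shRNA 2 Adcy1 fell to 815 CPM (-0.36 ± 0.08, edgeR adjusted p = 0.00168), a call lost in 2 of 24 alternatives. It was also lower in the 72Q control than in 25Q neurons, by -1.04 to -0.83 over the alternatives.

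**Figure D4:**
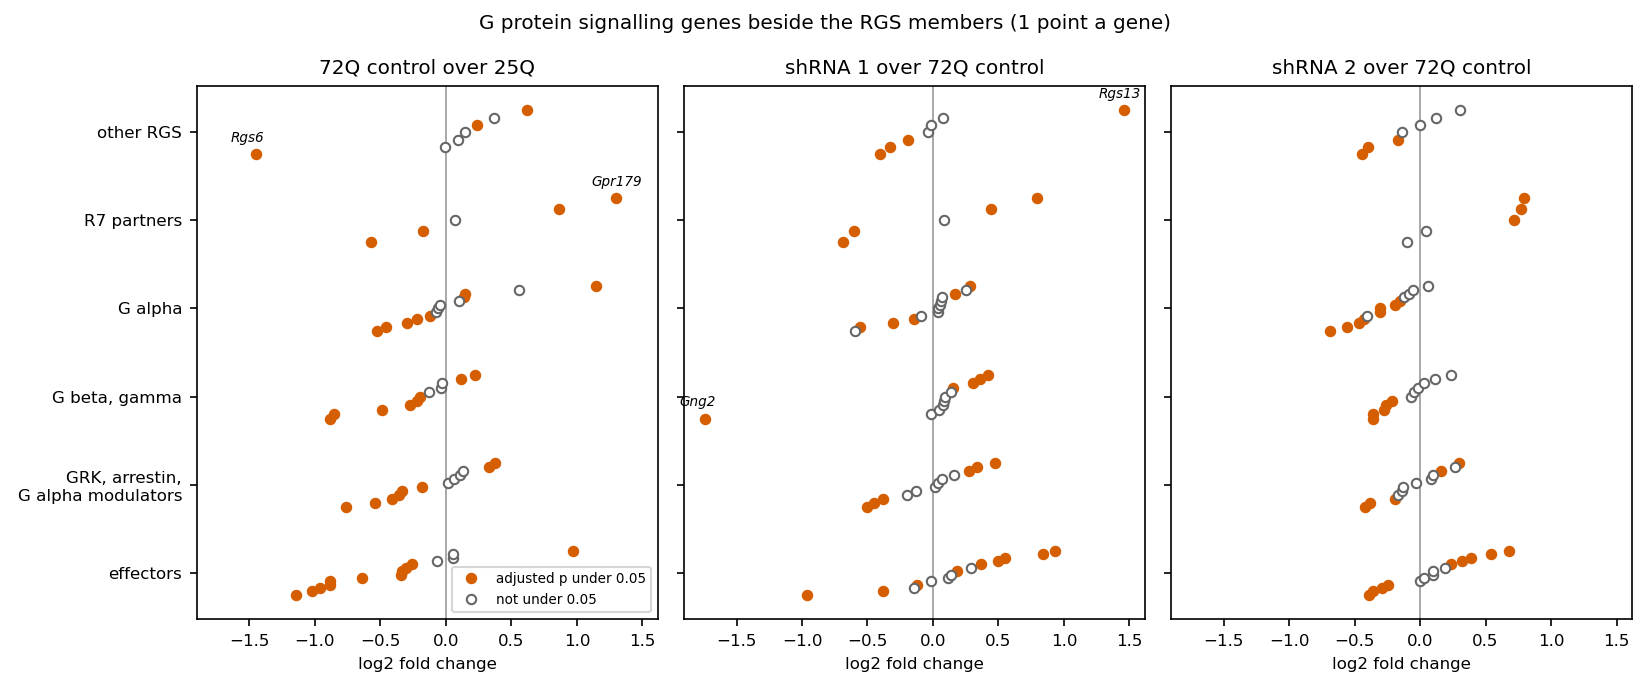
Log2 fold change (horizontal axis) of each tested gene in the lists of other RGS genes, R7 partners, G alpha, G beta and gamma, receptor kinases with arrestins and alpha subunit modulators, and effectors, in the 72Q control over 25Q, shRNA 1 over the 72Q control and shRNA 2 over the 72Q control, filled where the adjusted p was under 0.05. Rgs6 at -1.45 stands apart in the first panel, and Rgs13 at 1.46 and Gng2 at -1.74 in the second.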

How the data were processed

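RNA was sequenced after removal of ribosomal RNA with Ribo-Zero, per the labels. The submitters' processing notes name the aligner STAR 2.0.4b, the counter featureCounts 1.45 of Subread and the build GRCm38. Strand, multi-mapping and annotation release: not given in the sources used here. The authors deposited raw counts per Ensembl gene for 16 libraries, the input of every test. The deposited CPM and deposited RPKM values equalled recomputed ones within 2.5e-11 and 4.7e-11 and were not used. Symbols came from GENCODE M21, which named 40254 of 41388 identifiers (97.26%).

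Groups were taken from the labels, and the experiment from the description label. edgeR 4.0.16 was fitted over the 16 libraries, with terms for group and experiment (filterByExpr, TMM, robust quasi-likelihood), testing 15103 genes with Benjamini-Hochberg adjustment at 0.05. The prior count was 2, errors of log2 fold changes are SE or 95% intervals, and CPM in the text is TMM-scaled. Libraries of the same experiment deviated together from their group means, at correlations of 0.223 to 0.612 over 24 pairs, against -0.333 to 0.278 over 72 pairs of other experiments. Chi-square per degree of freedom between replicates was 2.85 to 22.65, so none agreed within sampling noise. Separate cultures are not stated beyond the experiment labels, and p-values then measure only the spread between the samples, which may be technical. The scripts were tested on simulated data.

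The members, the lists and the tests were chosen with earlier results of these data known. Named beyond the members were the RGS genes outside the set, the R7 partners and the 3 genes of most similar profile. Of each other list and comparison, only some of the 2 highest and 2 lowest called genes averaging at least 1 CPM were named. Gnaq and Gng3, named with the alternatives, were named after their values were seen. So were the markers Slc17a7, Cspg4, Notch3, Pdgfrb, Abcc9, Higd1b, Anpep, Tbx18, Tmem119, C1qb, Sall1 and Aif1. Alternatives were other scalings, no filter, another prior count, other blocks, DESeq2 and leaving out each library.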

Additional observations from a re-analysis of the deposited data

Results flagged for a closer look

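Of 40 sets of 4 libraries (10 RGS genes in 4 groups), 3 held a library that stood far from the other 3 by Dixon's criterion, where chance gives about 1 in 20. Rgs10 reached 12.3 CPM in the 25Q library of exp108, against 7.81 to 7.99 CPM in the other 25Q libraries. Rgs10 was likewise highest in the 72Q control library of exp108, at 10.1 CPM, against 7.19 to 7.38 CPM in the rest of that group. Rgs8 stood at 23.7 CPM in the 72Q control library of exp109a, the others of that group lying between 17.9 and 18.9 CPM.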

How the results depend on the processing

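Without the replicate block by experiment the genes called dropped to 4561 for shRNA 1 over the 72Q control (6999 with it) and to 3621 for shRNA 2 over the 72Q control (6307 with it). The counts for the 72Q control over 25Q and for shRNA 1 over shRNA 2 were 6526 and 5504 without the block and 7184 and 6299 with the title number as block. Leaving out 1 library at a time gave 7868 to 8718 calls for the 72Q control over 25Q, 6187 to 7170 for shRNA 1, 5423 to 6478 for shRNA 2 and 7209 to 8213 between the shRNAs. Scaling by library totals alone put the share of called genes that were higher at 69.7% in the 72Q control over 25Q (51.4% with TMM), 65.3% for shRNA 2 (48.5%) and 36.5% for shRNA 1 over shRNA 2 (51.3%), with a median over all genes of 0.163 in the first (0.03 with TMM). Gnaq, at -0.12 in the 72Q control over 25Q, reversed to 0.013 under that scaling. The 10 RGS genes were chosen on these counts, so their calls describe the fit, and a call that holds is no support for a difference. No RGS gene called in the set changed direction under any of the 24 alternatives. Rgs4 with shRNA 1 lost its call without the block, without shRNA 1 exp109a and without 72Q control exp109b or exp108, and Rgs9 with shRNA 1 lost it without the block or with the title block. Rgs16 with shRNA 2 lost it in 8 of 24, its value running from -0.56 to -0.31, and Rgs10 with shRNA 2 in 8 of 24. The cause was not tested. Without the block 7, 4, 4 and 4 of the 10 RGS genes were called in the 4 comparisons (7, 6, 6 and 7 with it). The effectors that fell in the 72Q control numbered 8 to 10 over the alternatives, and those that rose with shRNA 1 over shRNA 2 numbered 2 to 6 (5). Of 146 calls in the other lists, 102 held under all alternatives that gave a value. Rgs5 had 3 to 6 counts in each 72Q control library, and its log2 fold change in the 72Q control over 25Q was -2.00 and became -2.43 with DESeq2.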
